A study of Oryza sativa Japonica Group with 2 samples.

Results

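The regions described here are the places within 3 Mb of the 12 rice centromeres where FLAG-tagged NF-YC11 was called above input chromatin in developing endosperm. Each centromere was represented by a single coordinate per chromosome, given below, and a called summit was taken when it lay within 3 Mb on either side of that coordinate. Summits of the same region were merged. This gave 635 regions with 677 summits, out of 4188 regions on the chromosomes and 4193 in the whole list. The other 3553 chromosomal regions are called arm regions, and the stretch of 3 Mb on each side of a centromere coordinate is called the centromere window. The coordinates are approximate and mark a place, not a boundary.

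NF-YC proteins carry a histone-fold domain, pair with an NF-YB subunit and, together with NF-YA, form the NF-Y transcription factor that binds the CCAAT box of plant and animal promoters. In cereals, some NF-YB and NF-YC subunits are expressed mainly in the endosperm, the tissue in which the grain lays down starch and storage protein. Plant centromeres are built of satellite repeats and retrotransposons around nucleosomes with the centromeric histone H3, and are flanked by heterochromatin that is poor in genes and rich in repeats.

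The series sets 1 ChIP library, NF-YC11-FLAG chromatin precipitated with an anti-FLAG antibody, against 1 input library for which no antibody is listed. Both came from japonica rice endosperm at 7 days after pollination, with 3 g of tissue per sample, fixed for 30 min in 1% formaldehyde and sonicated to fragments of 200 to 500 bp. The sources used here do not give the promoter that drives the tagged gene, the number of transgenic lines, the genotype of the input tissue or the pooling of plants, and an untagged control library was not analysed here. With a single library on each side there is no replicate error and no test between conditions. The intervals below cover only counting error or, for medians, the spread over regions. Regions are not biological replicates and neighbouring regions are not independent. Total read numbers are unknown. The peak list holds no expression values, so the tissue could not be checked against endosperm markers.

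Pileup, background and fold describe each region, and the pileup and the fold are the authors' own values. The pileup counts the ChIP fragments lying over a summit. The background is the number of fragments predicted from the input after scaling to the ChIP library, and it was recovered from the pileup and the fold. Judged by its steps, it was set over 1 fragment length at 401 window regions, 1 kb at 143 and 10 kb at 36. It stood at the lowest value at 37 and was left unassigned at 18, all with a background above 40 fragments. The matching used a fixed tolerance, which can miss or misplace large values, so the counts per scale are approximate. The background is thus not always the input at the summit itself. The fold enrichment is the ratio of pileup to background, each with 1 added. At the lowest background the fold is set by the pileup alone. The lowest background in the list was 4.85 fragments, where the smallest pileup called was 14 fragments and the smallest fold 2.56, so enrichment under that fold could not be detected at such places with these libraries. A fold under 2 was found at 36 window regions, or 5.67%, and at 153 arm regions, or 4.31%, against 4.51% of all chromosomal regions.

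NF-YC11 regions were sparser around the centromeres than in the arms. The windows held 8.88 regions per Mb (95% Poisson interval 8.20 to 9.60) and the arms 11.8 per Mb (11.5 to 12.2), a ratio of 0.749 (0.688 to 0.816). The windows made up 19.3% of the chromosome length, counted between the outermost regions, and held 15.2% of the regions. Lower density in the window than in the arms was found on 11 of 12 chromosomes, and on 6 of them the interval of the ratio lay under 1. Chromosome 8 was the exception, with 60 regions in 6 Mb of window, or 10 per Mb, and 9.69 per Mb in its arms. Called regions covered 1896 bp per Mb of the windows and 2558 bp per Mb of the arms. These lengths still include assembly gaps and sequence to which reads cannot be placed, and the part of both in the result was not tested.

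**Figure D1:**
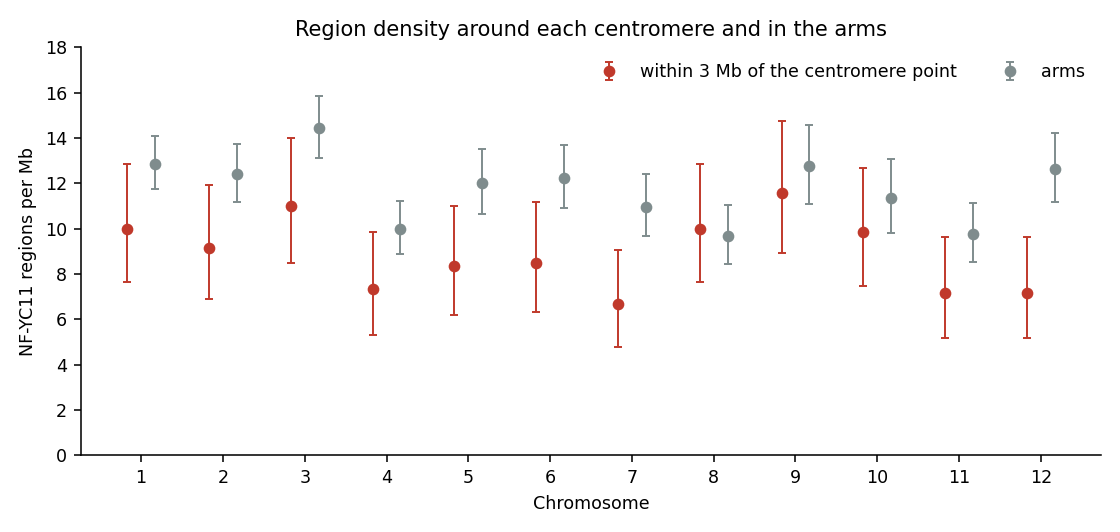
NF-YC11 regions per Mb (y axis) for each chromosome (x axis), within 3 Mb of the centromere point (red) and in the arms (grey); points are densities and bars are exact 95% Poisson intervals. The red point lies under the grey one on 11 of 12 chromosomes, and on chromosome 8 they stand at 10 and 9.69.

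The intervals of all 12 window densities overlapped. The density ranged from 6.67 per Mb (4.76 to 9.08) on chromosome 7 to 11.6 per Mb (8.91 to 14.8) on chromosome 9. The ratio of window to arms was lowest on chromosome 12, at 0.567 (0.401 to 0.785), where the arms hold 81 of the 121 arm regions with a background above 40 fragments, and next lowest on chromosome 7, at 0.607 (0.424 to 0.850). When summits with a background above 40 fragments were left out, the pooled ratio was 0.724 (0.663 to 0.791), chromosome 12 stood at 0.715 (0.491 to 1.02), and the interval lay under 1 on 9 chromosomes.

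The density was much alike across the window and higher further out. It was 8.58 regions per Mb (7.45 to 9.84) within 1 Mb of the centromere coordinate, 9.63 (8.42 to 10.9) from 1 to 2 Mb and 8.41 (7.28 to 9.67) from 2 to 3 Mb. Beyond the window it was 8.87 per Mb (7.69 to 10.2) from 3 to 4 Mb, 9.96 (8.71 to 11.3) from 5 to 6 Mb and 11.8 (10.3 to 13.4) from 11 to 12 Mb. The intervals on both sides of the limit of 3 Mb overlap. The last region inside it lay on chromosome 11, 0.519 kb from the limit, with 26 fragments and 2.09-fold, and the first outside on chromosome 2, 7.325 kb from the limit, with 33 fragments and 2.36-fold. Without high-background summits the innermost 1 Mb on each side was the sparsest of these bins, at 7.54 per Mb (6.48 to 8.72).

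**Figure D2:**
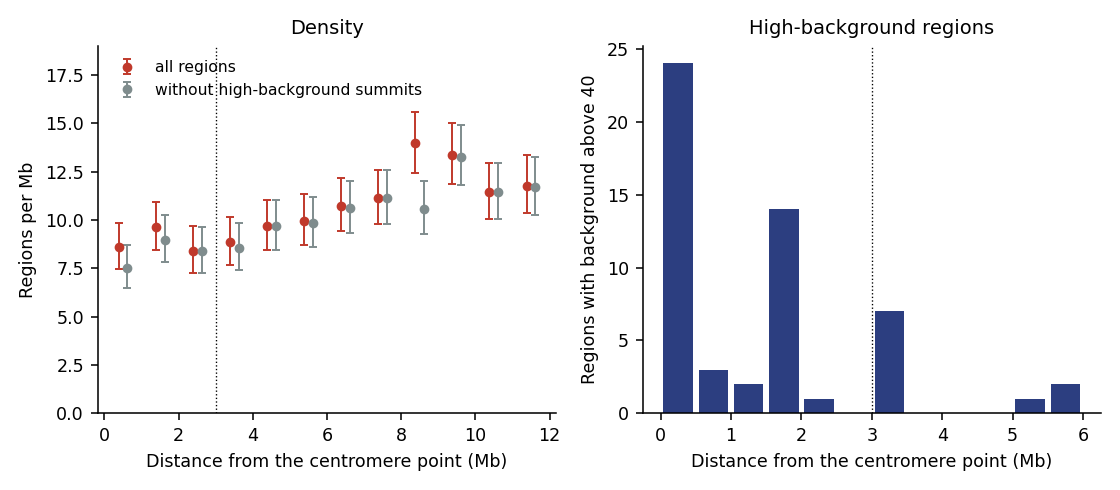
Left, regions per Mb (y axis) by distance of the summit from the centromere point in bins of 1 Mb (x axis), for all regions (red) and without high-background summits (grey), with exact 95% Poisson intervals. Right, the number of regions with a background above 40 fragments in bins of 0.5 Mb; the bar nearest to the centromere point holds 24 regions, the next 3, and the bar from 1.5 to 2 Mb holds 14; dotted lines mark 3 Mb.

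Stretches without a region had a longer median in the windows, while the longest of all, 1208 kb on chromosome 4, was among the arm stretches. The median stretch between consecutive regions was 73.2 kb in the windows, with quartiles of 28.7 and 152 kb, and 55.8 kb in the arms, with quartiles of 20.9 and 118 kb. Stretches longer than 400 kb numbered 18 in the windows, or 2.52 per 10 Mb, and 53 in the arms, or 1.77 per 10 Mb. Those longer than 500 kb numbered 8 in the windows and 24 in the arms, or 1.12 and 0.80 per 10 Mb. The arm values include stretches that cross a window's limit. The rates of long stretches rest on few cases and were given no interval. The part that the lower density of regions has in them was not tested.

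The longest empty stretch of a window came within 500 kb of the centromere coordinate on 8 of 12 chromosomes, and within 100 kb on chromosomes 3, 4, 6, 7 and 8. The number that stretches of such length would give if placed anywhere in the window was not worked out. On chromosomes 5, 9, 10 and 12 the longest stretch lay 1508, 668, 2287 and 1993 kb away. On chromosome 7 it contained the coordinate, from 11939026 to 12543671. Without high-background summits the same held on chromosome 6, where the longest stretch was then 551 kb, from 15294766 to 15846166. The longest in any window measured 938 kb and ran from 9768661 to 10706170 on chromosome 4. Chromosome 11 followed with 862 kb, between 12352898 and 13215367, and chromosome 7 with 605 kb. On chromosomes 1, 3, 7, 9 and 11 the longest stretch of the whole chromosome lay in the window, and on the others among the arm stretches. Without high-background summits it lay in the window on 4 chromosomes, as chromosome 1 then had a longer stretch of 572 kb in its arms.

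Over all called regions, the enrichment of NF-YC11 was much alike around the centromeres and in the arms. The median fold was 2.72 in the windows (95% interval of the median over regions 2.66 to 2.77), with quartiles of 2.40 and 3.09, and 2.72 in the arms (2.71 to 2.72), with quartiles of 2.39 and 3.09. The median pileup was 25 fragments in the windows (24 to 26) and 24 in the arms (24 to 24). The median width was 189 bp in the windows (181 to 195) and 191 bp in the arms (189 to 194). The intervals of both medians overlap for all of these measures, which does not show that the values are equal. A region with several summits was met in 38 of 635 cases in the windows (5.98%, exact Clopper-Pearson 95% interval 4.27 to 8.12) and in 185 of 3553 in the arms (5.21%, 4.50 to 5.99).

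**Figure D3:**
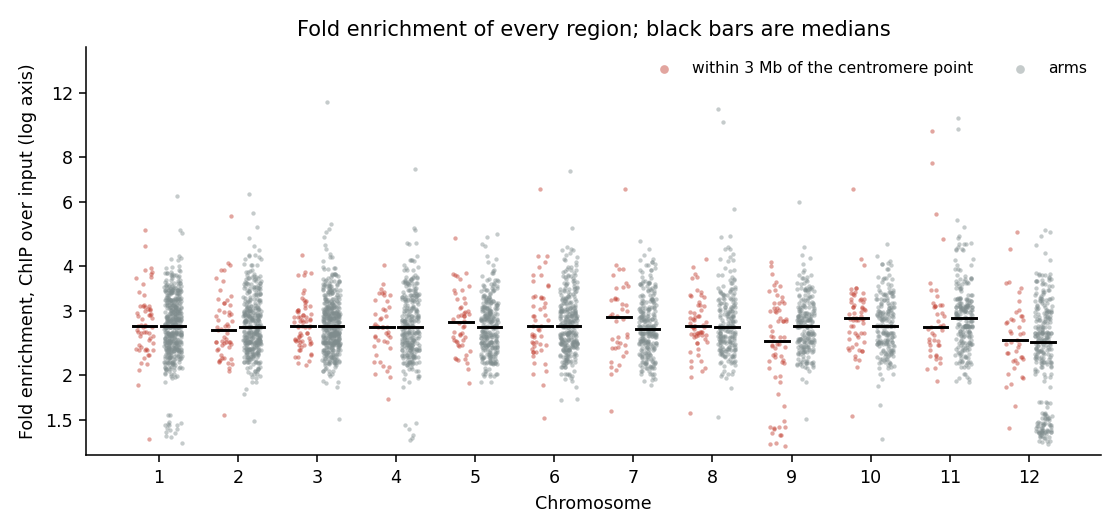
Fold enrichment of ChIP over input (y axis, log scale) for every region, by chromosome (x axis), within 3 Mb of the centromere point (red) and in the arms (grey); black bars are medians and sideways scatter has no meaning. The window medians run from 2.49 on chromosome 9 to 2.88 on chromosome 7, and the arm medians from 2.47 on chromosome 12 to 2.87 on chromosome 11.

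The background was a little higher around the centromeres. Its median was 8.19 fragments in the windows (8.19 to 8.92) and 7.45 in the arms (7.45 to 7.88), and it was higher in the window than in the arms on 6 chromosomes, lower on 4 and the same to 3 significant digits on the other two. The fold that can be called depends on the background, so folds were also set side by side at like backgrounds. At backgrounds up to 6 fragments the median fold was 2.93 (2.90 to 3.08) in 162 window regions and 2.93 (2.90 to 3.00) in 946 arm regions. From 8 to 10 it was 2.75 (2.62 to 2.90) in 150 window regions and 2.64 (2.62 to 2.72) in 771 arm regions, and from 10 to 20 it was 2.42 (2.31 to 2.50) in 148 and 2.38 (2.36 to 2.42) in 792. In none of these ranges did the intervals of windows and arms separate.

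The calls with the lowest q were about as dense around the centromeres as in the arms. A −log10 q of at least 5 was reached by 125 window regions, or 19.7% (16.7 to 23.0), and by 493 arm regions, or 13.9% (12.8 to 15.1), against 14.8% of all chromosomal regions. In density this was 1.75 per Mb in the windows and 1.64 per Mb in the arms, a ratio of 1.06 (0.867 to 1.30). Without high-background summits the numbers were 100 and 455, a ratio of 0.921 (0.735 to 1.15). The interval of each ratio includes 1. At this limit, with high-background summits kept, the median fold was 3.37 (3.24 to 3.58) in the windows and 3.64 (3.59 to 3.67) in the arms. These intervals separate, unlike those over all regions. Folds of at least 4 were found at 25 window regions, or 3.94% (2.56 to 5.76), and at 127 arm regions, or 3.57% (2.99 to 4.24), against 3.63% of all. Folds of at least 5 were found at 8 window regions, or 1.26% (0.545 to 2.47), and at 22 arm regions, or 0.619% (0.388 to 0.936), against 0.716% of all.

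Within the windows, regions with high signal in both libraries were most numerous next to the centromere coordinates. A background above 40 fragments was found at 44 window regions, or 6.93% (5.08 to 9.19), and at 121 arm regions, or 3.41% (2.83 to 4.06), against 3.94% of all chromosomal regions. Of the 44, 24 lay within 0.5 Mb of the centromere coordinate, where they made up 21.8% of 110 regions (14.5 to 30.7). From 0.5 to 1 Mb there were 3 among 96 regions (3.13%, 0.649 to 8.86), all of them on chromosome 4. The 24 were spread over 9 of the 12 chromosomes, with 7 on chromosome 11, 4 on chromosome 12, 3 on chromosome 3, 2 each on chromosomes 1, 8, 9 and 10, and 1 each on chromosomes 2 and 6. The windows of chromosomes 5 and 7 held 0 such regions. A further 12 of the 44 belong to a single locus on chromosome 9, described below. Without chromosome 9 the share in the windows was 5.08% (3.43 to 7.21), an interval that includes the arm share of 3.60% in that setting. In the arms 81 of the 121 lay on chromosome 12, and the bin from 8 to 9 Mb held more of them than the innermost 0.5 Mb, with 75 of 310 regions (24.2%, 19.5 to 29.4), 73 of them on chromosome 12. Without that chromosome the arm share was 1.22% (0.872 to 1.66). With chromosomes 9 and 12 both left out, the shares were 4.55% (2.93 to 6.69) in the windows and 1.27% in the arms.

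Intermediate backgrounds, from 20 to 40 fragments, were likewise seen more often in the windows. They were found at 12 window regions, or 1.89% (0.980 to 3.28), on 8 chromosomes, and at 11 arm regions, or 0.310% (0.155 to 0.553), on 6 chromosomes. Of the 12, 6 lay within 0.5 Mb of the centromere coordinate. They include a region of chromosome 7 that begins at 11938792 and borders the empty stretch around that coordinate, with 62 fragments over a background of 38.7.

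The median fold of the high-background regions was lower where the background was higher, and lower folds can be called there. The smallest fold called in the windows was 1.49 at backgrounds from 40 to 100 and 1.28 above 100. The part of this limit in the medians was not tested. Over all 44 window regions the median fold was 1.86 (1.54 to 2.13), and over the 121 arm regions it was 1.46 (1.45 to 1.5). With backgrounds from 40 to 100 the medians were 2.21 (1.97 to 2.42) in 26 window regions and 2.38 (2.13 to 2.49) in 23 arm regions. Above 100 they were 1.43 (1.37 to 1.52) in 18 window regions and 1.44 (1.41 to 1.47) in 98 arm regions. The intervals overlap at each level of background, and the windows hold the larger share of regions at the lower level.

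**Figure D4:**
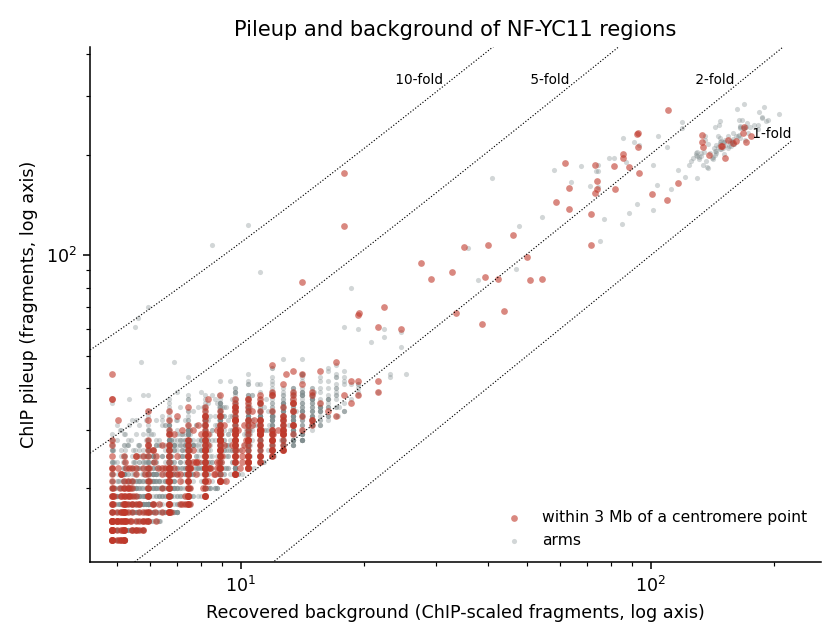
ChIP pileup (y axis, fragments, log scale) against recovered background (x axis, ChIP-scaled fragments, log scale) for window regions (red) and arm regions (grey); dotted lines mark equal fold. Between backgrounds of 20 and 40 there are 12 red and 11 grey points, although the windows hold 635 of 4188 regions, and above 100 there are 18 red and 98 grey points.

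Tall peaks at moderate background were denser in the windows than in the arms. After summits with a background above 40 were left out, 27 regions of the genome had a pileup of at least 60 fragments, and 15 of them lay in the windows, on 8 chromosomes, with 12 in the arms. This is 0.210 per Mb in the windows and 0.0400 per Mb in the arms, a ratio of 5.24 (2.29 to 12.3). The tall regions made up 2.53% of the window regions and 0.350% of the arm regions that were left. The limit of 60 was chosen after the values were seen. At 40 fragments the numbers were 28 and 74, a ratio of 1.59 (0.989 to 2.48), whose interval includes 1. The tall window regions had a median background of 24.6 fragments and a median fold of 2.97, and the tall arm regions 14.5 fragments and 5.76-fold. Of the 15, 11 lay within 1 Mb of a centromere coordinate. The part that the higher background has in this count was not tested.

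The map of the windows shows the strongest members and the empty stretches side by side. Of the 12 chromosomal regions of highest fold, 5 lay in centromere windows, and of the top 100 there were 16, close to the 15.2% that the windows hold of all regions.

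**Figure D5:**
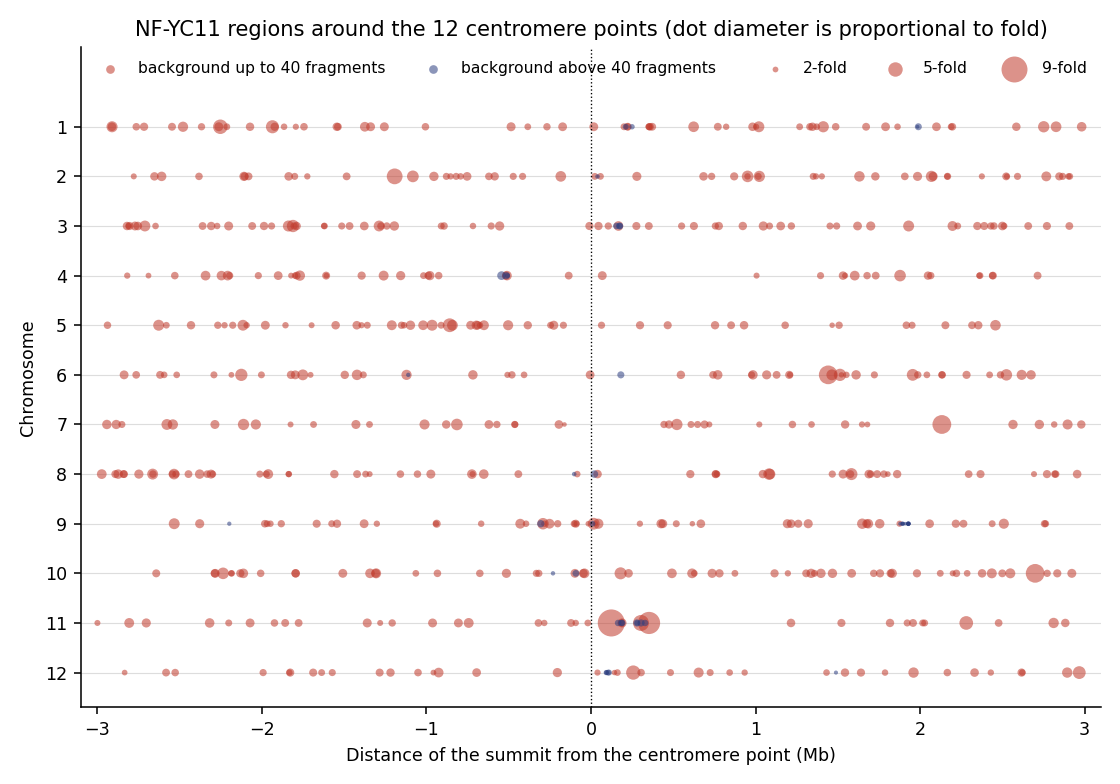
Each dot is an NF-YC11 region at its summit's distance from the centromere point (x axis, Mb) on its chromosome (y axis); dot diameter is proportional to fold, red dots have backgrounds up to 40 fragments and blue dots above 40. Blue dots are present within 0.5 Mb of the centromere point on 9 chromosomes, with 3, 7 and 4 on chromosomes 3, 11 and 12 and 1 or 2 on the others. The largest dots, 9.38-fold and 7.69-fold, lie on chromosome 11.

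The centromere of chromosome 11, taken at 12 Mb, had the strongest members. A stretch of 230 kb, from 12123090 to 12352897, held 12 of the window's 43 regions, among them the 7 high-background regions of the window and all 3 of its regions of at least 5-fold. It opened with the region at 12123090 to 12123604, where 176 fragments (151 to 204) stood on a background of 17.9, an enrichment of 9.38-fold (8.05 to 10.9). It closed with the region at 12351988 to 12352897, 910 bp wide, whose 4 summits had 30, 40, 38 and 44 fragments, each over the lowest background of 4.85, and folds of 5.30, 7.01, 6.66 and 7.69. The first of these strong regions is thus tall and stands on raised input, and the last is lower and stands at the lowest background, a floor value shared by 37 window regions and 135 arm regions.

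Between them lay 2 high-background loci. That at 12164585 to 12189655 had 3 such summits with backgrounds of 63.3 to 85.6 and folds of 2.16 to 2.27. That at 12278766 to 12328794 had 4, with backgrounds of 63.3 to 93.1 and folds of 1.92 to 2.49. Inside the second, 2 regions lay less than 1 kb apart and differed in both measures. The region at 12303773 to 12303922 had 83 fragments over 14.1, a fold of 5.55 (4.43 to 6.86), and that at 12304389 to 12304540 had 233 fragments over 93.1, a fold of 2.49 (2.18 to 2.83). The empty stretch of 862 kb began directly after the last region. Over the window as a whole the median fold was 2.72, against 2.87 in the arms of the chromosome, and the density was 7.17 and 9.77 per Mb.

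Chromosome 9, taken at 2.8 Mb, had the lowest median fold of the windows. Its window reaches the chromosome end, and 64 regions lay in 5.53 Mb counted from the first called region, or 11.6 per Mb. Counted from the first base the window is 5.8 Mb long and the density 11.03 per Mb (8.50 to 14.1), against 11 per Mb (8.51 to 14.0) on chromosome 3. Without high-background summits chromosome 9 had 9.04 regions per Mb (6.71 to 11.9), and chromosome 3 was then highest with 10.5 (8.07 to 13.4). The median fold was 2.49 (2.25 to 2.81), against 2.73 in its arms, and without high-background summits it was 2.81 and 2.73. A locus at 4679323 to 4731061 held 12 of these regions, with 20 high-background summits whose backgrounds ran from 116 to 185 fragments, pileups from 165 to 250 and folds from 1.28 to 1.64. It contains the widest region of all windows, 974 bp from 4693903 to 4694876, with 4 summits of 1.33-fold to 1.43-fold, and a further region of the 5 with the highest pileups, at 4729968 to 4730388, with 232 fragments and 1.38-fold (1.21 to 1.57). Close to the centromere coordinate, low folds over raised background were also met, beside the strongest region of the window. The region at 2808865 to 2809151, 9.10 kb from the coordinate, had 85 fragments over 42.4, a fold of 1.98 (1.59 to 2.44). Those at 2783874 to 2784109 and 2828099 to 2828328 had 1.97-fold and 1.77-fold, over 33.5 and 21.6. The strongest of the window, at 2816318 to 2816466, had 23 fragments over the lowest background and 4.10-fold (2.66 to 6.07).

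On chromosome 3, taken at 19.4 Mb, an empty stretch of 546 kb ended at the region at 19390357 to 19390673, 9.58 kb from the coordinate, with 23 fragments and 2.84-fold. A locus at 19553882 to 19575133 followed, with 3 high-background summits of 2.13-fold to 2.46-fold. It includes the largest pileup of all windows, 272 fragments (241 to 306) over 110, at 19574053 to 19574219. The strongest member of this window lay further off, at 17588883 to 17589052, with 32 fragments and 4.29-fold (2.97 to 6.0).

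On chromosome 4, taken at 9.7 Mb, 3 high-background summits lay between 9156330 and 9193352, with folds of 1.72 to 3.03. The highest pileup of this window, 231 fragments over 92.3 at 9185422 to 9185595, belongs to them. The longest empty stretch of all windows lies on the other side of the coordinate, and only 2 regions were called within 0.5 Mb of it, the fewest of any window. The window had 7.33 regions per Mb against 10 in the arms, and its strongest member was at 11578210 to 11578366, with 24 fragments and 4.02-fold (2.64 to 5.91).

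On chromosome 8, taken at 12.9 Mb, regions with 211 fragments over 134 and 107 over 40.2 lay on the low-coordinate and the high-coordinate side of the coordinate, at 1.57-fold and 2.62-fold. An empty stretch of 564 kb followed, from 12940006 to 13503601. The window reached 4.17-fold (2.82 to 5.96) at 14482652 to 14482824, with 28 fragments. Its ratio of density to that of the arms was 1.03 (0.762 to 1.38).

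On chromosome 12, taken at 11.9 Mb, a locus at 11992954 to 12009128 held 6 high-background summits in 4 regions, with backgrounds of 46.9 to 73.0 and folds of 1.54 to 2.10. Within 150 kb of it, at 12156790 to 12156947, lay the strongest member, with 28 fragments over the lowest background and 4.95-fold (3.35 to 7.09). The longest empty stretch, 534 kb, lay 1993 kb from the coordinate. The median fold was 2.50 in the window and 2.47 in the arms, and without high-background summits 2.61 and 2.68.

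Chromosomes 6, 7 and 10 had single strong regions away from the centromere coordinate. On chromosome 6, taken at 15.3 Mb, the region nearest to any coordinate lay at 15294577 to 15294765, 5.26 kb from it, with 27 fragments and 3.05-fold, and the longest stretch, 401 kb, ended there. The strongest member was at 16741547 to 16741764, with 37 fragments over the lowest background and 6.49-fold (4.62 to 8.88). A high-background region with 115 fragments over 46.2 lay 181 kb from the coordinate. The same pileup, background and fold as at the strongest member of chromosome 6 were found on chromosome 10, taken at 8.2 Mb, at 10899153 to 10899327, 2.70 Mb from its coordinate. Both stand at the lowest background, where equal pileups give equal folds. Within 0.5 Mb of that coordinate, chromosome 10 had high-background regions with 201 fragments over 85.6 and 68 over 43.9, at 2.33-fold and 1.54-fold. Chromosome 7, taken at 12.1 Mb, had 122 fragments (101 to 146) over 17.9 at 14232116 to 14232267, a fold of 6.52 (5.42 to 7.77), within a region of 152 bp. Chromosomes 7 and 10 had the highest median folds of the windows, 2.88 (2.46 to 3.13) and 2.87 (2.74 to 3.06), against 2.68 and 2.73 in their arms. Both intervals overlap that of the window of chromosome 5, 2.55 to 2.96, and that of chromosome 7 includes its arm median. The window of chromosome 7 also had the widest median region, 225 bp (175 to 261), against 185 bp in its arms, while that of chromosome 10 had 178 bp (161 to 200) and 194 bp in the arms.

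The strongest members of chromosomes 1, 2 and 5 had folds of 4.78 to 5.48. On chromosome 1, taken at 16.7 Mb, 60 regions were called and the strongest, at 14447274 to 14447502, had 34 fragments and 5.03-fold (3.53 to 6.97). Its longest stretch, 520 kb, ended 486 kb from the coordinate. On chromosome 2, taken at 13.6 Mb, the strongest of 55 regions was at 12406707 to 12406927, with 32 fragments and 5.48-fold (3.8 to 7.66). It also held the third widest region of the windows, 575 bp at 13184201 to 13184775, with summits of 18 and 15 fragments at 2.47-fold and 2.36-fold, and its longest stretch was 405 kb. On chromosome 5, taken at 12.4 Mb, the tallest of 50 regions had 42 fragments, the lowest maximum of any window. The strongest was at 11541120 to 11541273, with 27 fragments over the lowest background and 4.78-fold (3.21 to 6.88), and the longest stretch was 409 kb. The intervals of the top members of chromosomes 1, 2 and 5 overlap, so their order cannot be told from counting error, and each member was named because its fold was high, a choice that no interval here takes into account.

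The sides of the windows were unequal on some chromosomes. On chromosome 5, 35 regions lay on the low-coordinate side and 15 on the high-coordinate side. On chromosome 4 the numbers were 28 and 16, and on chromosome 12 they were 16 and 27. On chromosome 9, whose low-coordinate side is cut short by the chromosome end, they were 26 and 38. On chromosome 3 both sides held 33. These splits were chosen after their values were seen and were given no interval, and the coordinates that divide the sides are approximate.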

How the data were processed

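ChIP and input libraries of rice endosperm were aligned with BWA and peaks called with MACS2, per the submitters' processing notes; the sources used here give no versions, genome build, mapping filter or handling of duplicates. A table of peaks and a list of summits were deposited. The deposited pileup is a signal in whole ChIP fragments, and the deposited fold enrichment is a ratio to local input, per the file headers. The authors' −log10 p and −log10 q columns had damaged headers and were identified by place and values; the 4445 summits of table and list had equal q. The list ends at a q of 0.0491.

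Background was recovered as (pileup + 1) / fold − 1; a Poisson tail at that background gave every deposited −log10 p to within 0.00032. Summits sharing chromosome, start and end were merged, and the highest-fold summit stands for a region. Arm length is the distance between a chromosome's outermost regions minus the window; 5 summits on unplaced contigs belong to neither. Loci join high-background summits over gaps of up to 50 kb. Intervals are 95%: exact Poisson for counts, conditional binomial for density ratios, order statistics for medians, with background held fixed for folds. The procedure was tested on simulated lists (Python 3.11.15, scipy 1.17.1). Regions were placed independently there, so the test does not cover intervals for regions clustered in loci. Named for each centromere were the highest-fold region and the longest stretch, besides regions of at least 5-fold, the 5 tallest, the 3 widest, the 3 nearest to a coordinate and loci of at least 3 high-background summits; others were chosen after their values were seen. Members and lists were chosen with earlier results of these data known. Sequence, genes and the CCAAT box were not analysed here, since no genome of the files' build was at hand.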

Additional observations from a re-analysis of the deposited data

How the results depend on the processing

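The ratio of window to arm density, 0.749, stayed between 0.694 and 0.770 with a q of at most 0.01, without high-background summits, with half-widths of 1.5 and 5.0 Mb, without chromosome 9, without chromosomes 9 and 12, with summits as units, without high-background summits at a half-width of 1.5 Mb, and with chromosomes counted from their first base. It turned to 1.06 once a −log10 q of 5 was required, which leaves 618 of 4188 regions, and was 0.921 there without high-background summits; the cause was not tested. At a −log10 q of at least 5, at the same limit without high-background summits, and at a q of at most 0.01, the median window fold was 3.37, 3.60 and 2.90, the median pileup 36, 34 and 27 fragments and the median width 174, 174.5 and 179 bp, as weak summits are removed by construction. In the arms the fold was 3.64, 3.66 and 2.90, the pileup 32, 31 and 26 fragments and the width 186, 185 and 186 bp. The intervals of windows and arms separated for all these medians in the first setting, and for none in the second. In the first setting the share of at least 4-fold was 20% in the windows and 25.8% in the arms. That of high-background regions was 20% and 7.71%. In the second setting the share of at least 4-fold was 25% and 27.7%. The high-background share of the windows, 6.93%, was 9.48% at a half-width of 1.5 Mb and 4.80% at 5.0 Mb. It was 5.08% without chromosome 9 and 4.55% without chromosomes 9 and 12. At 5.0 Mb the interval of the window share, 3.596 to 6.266, included the arm share of 3.647%. Without chromosome 9 the interval, 3.43 to 7.21, likewise included the arm share of 3.598%. At 1.5 Mb and without chromosomes 9 and 12 the interval lay above the arm share. The longest stretch, 938 kb, was 941 kb at a half-width of 5.0 Mb, 1326 kb at a q of at most 0.01 and 2996 kb at a −log10 q of at least 5, with and without high-background summits, where fewer regions leave longer stretches. The settings that combine 2 choices, the one without chromosomes 9 and 12, and the count from the first base, were chosen after seeing the data. A share of high-background regions has no value where such summits are left out. Chromosome lengths and the CCAAT box were not run for want of a genome of the files' build. No paired analysis was possible because neither group has a second library, which also leaves no replicate to omit. The smallest fold called at the lowest background, 4.85 fragments, was 2.56.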
